A study of Oryza sativa with 3 samples.

Results

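The probes described here are the 45 oligonucleotides of a rice gene expression array that are named for the microRNA families miR156 and miR172. They are all probes whose name begins with osa-miR156 or osa-miR172 and a letter, out of 42477 non-control probes on the array and out of 510 named for rice microRNAs. Of these, 33 belong to 11 miR156 genes (miR156a to miR156i, miR156k and miR156l) and 12 belong to 4 miR172 genes (miR172a to miR172d). Each gene has a probe marked Mature, a probe marked 5'seq and a probe marked 3'seq, and each probe was spotted 2 times per array. The sources used here do not say which bases each of the 3 kinds spans, and the 5'seq and 3'seq probes are called flank probes below only because their names set them apart from the Mature probe.

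The comparison was between roots under vanadium, a transition metal given at 1 mM, and roots in water. All seedlings were rice (Oryza sativa) of the cultivar TN-67 at an age of 6 days. Each of 3 arrays carried the vanadium RNA of a biological replicate, labelled with Cy5, and the water RNA of the same replicate number, labelled with Cy3. The labels do not say how many seedlings made up a replicate or how long the exposure lasted, and the series title calls the stress early. The files pair no locus with a gene name, so the root label was not checked against marker genes, and the mRNA targets of the 2 families were not analysed here.

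MicroRNAs are cut from hairpins inside longer primary transcripts, which RNA polymerase II makes and which carry a cap and a poly(A) tail. In plants miR156 marks the juvenile phase: it silences SPL transcription factors, and in rice one of its targets, OsSPL14, shapes tillering and panicle branching. miR172 acts later in the same pathway. In Arabidopsis an SPL factor switches on a miR172 gene, and miR172 in turn silences AP2-like factors that hold back flowering. Here total RNA was purified on a column and amplified to labelled cRNA, and the labels describe no enrichment of small RNA. A signal therefore cannot be assigned to the primary transcript, the hairpin or the mature microRNA, and fewer expressing cells cannot be told apart from less RNA per cell.

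Per array, 31479 to 32471 of all probes stood well above background under vanadium, against 29439 to 32140 in water. Negative control spots had lower median signals in the vanadium (Cy5) channel (62, 67 and 68 for replicates 1, 2 and 3) than in the water (Cy3) channel (89, 160 and 154.5). Dye and treatment coincide on every array, and the part of this difference in the counts was not tested. Among the 45 miR156 and miR172 probes the counts under vanadium were 20, 19 and 17 for replicates 1, 2 and 3, against 21, 17 and 15 in water. Log2 ratios of the arrays correlated across all tested probes at 0.895 to 0.930, where probes are not independent replicates. The dyes were never swapped, so a dye effect specific to a probe and the effect of vanadium cannot be told apart in any ratio below.

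Roots gave signal at miR156 flank probes, at 1 miR172 flank probe, and at no Mature probe on all 3 arrays. A probe was taken as detected, and tested, if it was well above background in the vanadium channel on all 3 arrays or in the water channel on all 3. By this rule 8 of 11 miR156 5'seq probes, 6 of 11 miR156 3'seq probes and 0 of 11 miR156 Mature probes were detected. Of the miR172 probes, 1 of 4 5'seq probes, 0 of 4 3'seq probes and 0 of 4 Mature probes were. In all, 15 of 45 probes (33.3%) were detected, beside 149 of 465 (32.0%) of the other microRNA probes on the array. For the Mature probes the same counts were 0 of 15, beside 43 of 155 for other microRNAs.

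The Mature probes were dark in both treatments. Of the 15, 12 were not well above background on any array in either channel. The miR156b Mature probe was well above background on replicate 3 alone, in both channels. The miR156k Mature probe was so on replicate 1 alone, again in both channels, and the miR172c Mature probe on replicate 2 in the vanadium channel alone. Normalized intensities of the miR156 Mature probes, which include an offset of 50, lay between 63.2 and 147.8 under vanadium and between 61.3 and 164.2 in water. Those of the miR172 Mature probes lay between 60.1 and 119.2 under vanadium and between 60.7 and 113.8 in water.

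Under vanadium 4 of the 14 detected miR156 probes were higher than in water and 1 was lower, and 9 did not pass the test (limma's moderated test, adjusted p under 0.05, n = 3 arrays). Among all 30909 probes tested, 28.8% were higher and 21.2% lower. Among the 148 tested probes of other microRNAs the shares were 22.3% higher and 26.4% lower, with a median log2 ratio of 0.09. The share of detected miR156 probes that were higher, 28.6%, was near that background, and the share that were lower was 7.14%. The single detected miR172 probe did not pass the test. The changes were small. The largest, at miR156d, was 1.57-fold, and 19.2% of all probes tested changed by as much or more. The median log2 ratio of the 14 miR156 probes was 0.16, beside 0.01 over all probes tested, and it was 0.19, 0.13 and 0.16 on replicates 1, 2 and 3. Of the 14, 8 were higher on every array and 1 was lower on every array. The same count over all probes tested is not given here, so these 2 counts have no background beside them. Several of the 14 probes belong to the same gene, so they are not counted as replicates.

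miR156d, a gene on chromosome 2, showed the largest rise of both families. Its 3'seq probe had normalized intensities of 10399, 11687 and 11387 under vanadium on replicates 1, 2 and 3, against 5947, 8108 and 7415 in water. The vanadium and water values, not scaled between arrays, did not overlap, and how many of all probes tested share this is not given here. The log2 ratios were 0.81, 0.53 and 0.62 in the same order, with a mean of 0.65 ± 0.09 (SE, n = 3 arrays), a 95% confidence interval of 0.44 to 0.86 and limma's adjusted p = 0.00135. Here and below, SEs and intervals are limma's moderated ones, which also draw on the variance of all probes tested. Both spots of the probe gave a rise on every array, between 0.52 and 0.85. The call held under each of the 14 other ways of processing that were tried, with log2 ratios from 0.57 to 0.71. At the 5'seq probe of the same gene both channels were well above background on replicate 1 alone, and it was not tested. The rise of miR156d was therefore read from 1 probe.

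miR156e, on chromosome 4, had 2 probes that passed the test, among 4 genes with both flank probes detected. Its 5'seq probe had intensities of 1237, 809 and 614 under vanadium on replicates 1, 2 and 3, against 829, 678 and 480 in water. The vanadium channel was the higher on every array, although the 2 treatments overlapped across arrays because replicate 1 was brighter in both. The mean log2 ratio was 0.40 ± 0.09 (SE, n = 3 arrays; limma, adjusted p = 0.0124), a 1.32-fold rise. The 3'seq probe of miR156e had intensities of 524, 319 and 287 under vanadium, against 370, 291 and 234 in water. Its pattern over the arrays was that of the 5'seq probe, with the smallest ratio on replicate 2. Its mean log2 ratio was 0.31 ± 0.10 (SE, n = 3 arrays; limma, adjusted p = 0.0342). The 5'seq ratio exceeded the 3'seq ratio by 0.07, 0.12 and 0.06 on the 3 arrays, less than either rise.

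miR156h, on chromosome 6, passed the test at its 5'seq probe and not at its 3'seq probe. The 5'seq probe had intensities of 3925, 7203 and 6955 under vanadium on replicates 1, 2 and 3, against 2630, 6615 and 5327 in water. Vanadium was higher on each array and the ranges overlapped, with replicate 1 the dimmest in both channels. The log2 ratios of 0.58, 0.12 and 0.38 gave a mean of 0.36 ± 0.10 (SE, n = 3 arrays; limma, adjusted p = 0.0280). At the 3'seq probe they were 0.07, -0.04 and 0.23, with a mean of 0.09 (95% confidence interval -0.12 to 0.29; limma, adjusted p = 0.444). The 5'seq ratio exceeded the 3'seq ratio on every array, by 0.51, 0.17 and 0.15. That difference was not tested.

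miR156g, on chromosome 9, had the 1 probe among the 15 tested that was lower under vanadium. Its 3'seq probe had intensities of 370, 1137 and 1410 under vanadium on replicates 1, 2 and 3, against 469, 1287 and 1792 in water. The vanadium value was the lower on each array, within a spread between arrays that was far wider. The log2 ratios were -0.34, -0.18 and -0.35, with a mean of -0.29 ± 0.08 (SE, n = 3 arrays) and limma's adjusted p = 0.0249. Both spots gave a negative ratio on every array. Its 5'seq probe was well above background in water on replicate 1 alone and was not tested.

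Of these 5 calls, 4 depended on the processing or on single arrays. Without replicate 1 the calls at the miR156e 3'seq (adjusted p = 0.123), miR156g 3'seq (0.0689) and miR156h 5'seq (0.0908) probes were lost in limma. Without replicate 3 the same 3 were lost (limma, adjusted p = 0.118, 0.170 and 0.0985), and without replicate 2 all 5 remained. Calls were fewer over all probes too: 26.7%, 24.8% and 22.3% were higher without replicates 1, 2 and 3, and 17.7%, 17.1% and 13.3% lower. With the channels fitted without their pairing on an array, and with median centring in place of loess, miR156d was the 1 probe called. Calls fell over the whole array in these settings too: 15.6% and 18.3% of all probes tested were higher, beside 7.14% of the detected miR156 probes in both. With the scanner software's own ratio the calls at miR156d and miR156g held, those at miR156e and miR156h were lost, and the miR156l 5'seq probe was called higher.

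The other 9 detected miR156 probes did not pass the test. Their log2 ratios lay between 0.03 and 0.19, all positive, with adjusted p from 0.0724 to 0.800 (limma). Their 95% confidence intervals reached from -0.19 at the lowest to 0.42 at the highest, so these data leave room for rises of up to about the size seen at miR156e. The miR156b 5'seq probe, at 0.19, passed the filter through the vanadium channel alone, which favours a positive ratio. The signs of the probes of miR156c (5'seq), miR156h (3'seq), miR156i (3'seq) and miR156k (5'seq) turned negative under at least 1 alternative way of processing.

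miR156k, on chromosome 9, had both flank probes detected, and they differed in how even they were. The 3'seq probe gave log2 ratios of 0.19, 0.22 and 0.17 on replicates 1, 2 and 3, the most even of the detected miR156 probes, from intensities of 140, 222 and 215 under vanadium against 123, 191 and 191 in water. Its mean was 0.19 ± 0.08 (moderated SE, n = 3 arrays; limma, adjusted p = 0.0724), while the SD of its 3 ratios was 0.02. The 5'seq probe gave -0.18, 0.29 and 0.08, so its sign differed between arrays. Its mean was 0.06 ± 0.11 (SE, n = 3 arrays; limma, adjusted p = 0.645).

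miR156b and miR156c lie on chromosome 1. In maize a tandem pair of miR156 genes with these letters underlies the juvenile Corngrass1 mutant. miR156c had intensities at its 5'seq probe of 1683, 1776 and 1553 under vanadium, against 1537, 1555 and 1530 in water on replicates 1, 2 and 3. Vanadium lay above water on each array by a small margin, with a mean log2 ratio of 0.11 ± 0.08 (SE, n = 3 arrays; limma, adjusted p = 0.271). For miR156b the ratios at the 5'seq probe were -0.02, 0.20 and 0.38, with a mean of 0.19 ± 0.10 (limma, adjusted p = 0.159). In water this probe was well above background on 2 of 3 arrays, so it passed the filter through the vanadium channel alone. The 3'seq probes of both genes were not detected.

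The remaining tested genes gave values near 0 to small rises. The miR156a 5'seq probe, also on chromosome 1, had intensities of 212, 168 and 193 under vanadium on replicates 1, 2 and 3, against 184, 163 and 186 in water. Vanadium was higher on each array, most so on replicate 1, and the mean log2 ratio was 0.10 ± 0.08 (SE, n = 3 arrays; limma, adjusted p = 0.334). miR156l, on chromosome 4, had intensities of 130, 162 and 167 under vanadium at its 5'seq probe, against 105, 152 and 155 in water. It too was higher on each array and most so on replicate 1, with a mean log2 ratio of 0.17 ± 0.08 (SE, n = 3 arrays; limma, adjusted p = 0.137). For miR156i on chromosome 2 the log2 ratios were 0.32, -0.05 and 0.15 at the 5'seq probe and 0.01, -0.03 and 0.10 at the 3'seq probe. Both probes were thus lowest on replicate 2, where the sign turned. Their means were 0.14 ± 0.09 and 0.03 ± 0.08 (SE, n = 3 arrays; limma, adjusted p = 0.259 and 0.800). miR156f, on chromosome 8, was the 1 miR156 gene of 11 with no detected probe. Its 3'seq probe was well above background under vanadium on replicates 1 and 2, and in water on replicate 1.

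Of the miR172 family, miR172a on chromosome 9 was the 1 gene of 4 with a detected probe. Its 5'seq probe had intensities of 535, 853 and 577 under vanadium on replicates 1, 2 and 3, against 411, 895 and 554 in water. Vanadium was higher on replicates 1 and 3 and lower on replicate 2, and the treatments overlapped. The log2 ratios of 0.38, -0.07 and 0.06 gave a mean of 0.12 ± 0.11 (SE, n = 3 arrays), with a 95% confidence interval of -0.13 to 0.38 and limma's adjusted p = 0.368. The mean was -0.01 without replicate 1, so the positive value rested on that array. Of the other 11 miR172 probes, 8 were not well above background on any array in either channel. On chromosome 2, the miR172d 5'seq probe came nearest to detection, being well above background on replicates 2 and 3 under vanadium and on replicate 2 in water.

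At 4 of the 15 detected probes slide 2 differed from slide 1 by a log2 difference above 1 in both channels. This held after the median difference over all tested probes was taken off. Such differences exceeded that between vanadium and water at any member, a comparison chosen after these values were seen. Replicate 1 lay on slide 1 and replicates 2 and 3, averaged here, on slide 2, each slide scanned by itself. Slide 2 was brighter over all tested probes by a median of 0.58 in the vanadium channel and 0.56 in the water channel on the log2 scale. All differences between slides given here, with the counts and shares drawn from them, are relative to these medians. The miR156h 3'seq probe was lower on slide 2 by a log2 difference of -2.10 in the vanadium channel and -2.10 in the water channel. Differences in both channels that were as large were found at 0.117% of all probes tested. The other probes of this kind were miR156e 5'seq, at -1.40 under vanadium and -1.10 in water, miR156e 3'seq, at -1.38 and -1.07, and miR156g 3'seq, at 1.19 and 1.13. A log2 difference above 1 in both channels was found at 1.04% of all tested probes. miR156h did not share at its 5'seq probe the difference of its 3'seq probe, with 0.27 under vanadium and 0.61 in water. Slide, scan and biological replicate cannot be told apart here. At miR156e the differences were unequal between the channels, and the log2 ratios were 0.58 on slide 1 against 0.26 and 0.36 on slide 2 at the 5'seq probe, and 0.50 against 0.13 and 0.30 at the 3'seq probe.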

How the data were processed

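The deposited array files hold, for each channel, the median intensity of a spot and of its local background, read by Agilent Feature Extraction 10.7.1.1 per the file headers. Per the file headers, the software also subtracted background, normalized the dyes, and gave the log10 ratio of red over green, with flags for background and outliers. The deposited value table holds log2 ratios: for 100% of 41882 single-spot probes they matched the log2 processed ratio within 0.001, and the column medians of -0.05, -0.19 and -0.21 show that they were not centred on the median. The RNA processing before the scan is known only per the labels' protocols.

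In limma 3.58.1 (R 4.3.3), normexp (offset 50) on the median signals corrected the background and loess normalized each array, control spots having weight 0. Intensities in the text are these values per channel, not scaled between arrays. Outlier spots were left out (1090, 401 and 306 of 45151), and no spot was saturated. The 2 spots of a probe were averaged, and a probe was well above background on an array where either spot was. Mean log2 ratios (vanadium over water) were tested against 0 with lmFit and eBayes, 2-sided. The p-values were adjusted by Benjamini-Hochberg over the 30909 probes with a value, of 30922 kept. Of the probes tested, 1026 had a ratio on fewer than 3 arrays, and the detected members had one on all 3. SEs and confidence intervals are limma's moderated ones, in which a probe's variance is drawn towards that of all probes tested. The steps were also run on simulated data, which held no outlier spots and no dye effect specific to a probe. The outcome is not given here.

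The array pairs treated and control RNA. Deviations of the channels from their means over arrays correlated at 0.771 in replicate 1, 0.613 in replicate 2 and 0.777 in replicate 3. Between arrays the highest value was 0.0659. Spot effects shared by both channels also raise the correlation inside an array. Every member that passed the test is named with its values, then the other detected probes. Undetected probes are given mainly by counts, with ranges of intensity for the Mature probes only. Members and alternatives were chosen with earlier results of these data known. The planned lists of target and marker loci were not used, since the files and the reference table do not pair them with names. The number of arrays, 3, limits the precision. The p-values set the mean ratio against a moderated variance, which combines a probe's spread between these 3 replicates with that of all probes tested.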

Additional observations from a re-analysis of the deposited data

How the results depend on the processing

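As reported, 4 miR156 probes were higher and 1 lower. The counts were 1 and 0 with the channels fitted without the array pairing (no replicate block), and 1 and 0 with median centring. Over all probes 15.6% and 18.3% were higher in these settings, against 28.8% as reported. The scanner's log ratio gave 2 and 1, where 22.4% of all probes were higher and 32% lower. The authors' deposited table also gave 2 and 1, beside 22.5% and 32.5% of all probes. Leaving out 1 replicate gave 2 to 4 higher and 0 to 1 lower, where 22.3% to 26.7% of all probes were higher and 13.3% to 17.7% lower. An offset of 0 gave 5 and 1, beside 27.4% and 20.3% of all probes. For miR172 the counts stayed at 0 higher and 0 lower, except that without the filter on dim probes 1 was lower. That probe, miR172a 3'seq, never stood well above background in either channel. The scanner software's ratio changed the log2 ratio of a tested probe by a median of -0.14. It turned the split of all called probes to 6914 higher and 9896 lower, against 8902 and 6564. Median centring changed the log2 ratio of a tested probe by a median of -0.10.

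The median log2 ratio of the detected miR156 probes, 0.16, was 0.21 with the scanner software's ratio, 0.21 with the authors' deposited table and 0.27 with an offset of 0. It was 0.14 where detection in both channels was required and 0.017 over all 33 miR156 probes without the filter. No called probe changed its sign. miR156l 5'seq passed the test with the scanner software's ratio (0.41, limma, adjusted p = 0.0392) and miR156k 3'seq with an offset of 0 (0.28, adjusted p = 0.0394). Slide as a block, outlier spots kept, no background correction, detection in both channels and, chosen after the data were seen, detection in every spot each kept 4 higher and 1 lower. Over all probes, 26.5% to 30.9% were higher and 20.8% to 24.2% lower in these settings. On replicates 2 and 3, which shared a slide, 2 were higher and 0 lower, beside 26.7% and 17.7% of all probes. The other slide held 1 array. The target loci planned for these alternatives were not run. A fold can be given for 15 of the 45 probes, those that were detected.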

Other observations

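The 2 spots of a detected miR156 or miR172 probe differed in log2 ratio by a median of 0.08 and by at most 0.30, over 45 pairs of spots. The miR172d 3'seq probe had 1 spot marked as an outlier on 1 array, and its value there is that of the other spot.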
